A study of Homo sapiens with 8 samples.

Results

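ZBTB48 and 9 further genes for proteins that sit on telomeres were compared between U2OS WT and ZBTB48 KO clones by the active promoter mark H3K4me3. The genes were the 6 of the shelterin complex (TERF1, TERF2, TERF2IP, TINF2, ACD and POT1), ZBTB48 itself, and ZBTB10, HMBOX1 and ZNF827. They were chosen by name and not by a measured value, though with earlier results of these data known. They make up 10 of the 20033 protein-coding promoters examined. For each gene the H3K4me3 peaks within 3 kb on either side of the 5′ end of its MANE Select transcript, the transcript on which the RefSeq and Ensembl annotations coincide, were collected. The question was whether these promoters carry their mark in cells without ZBTB48.

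The data are lists of broad peaks from ChIP-seq of H3K4me3, trimethylated lysine 4 of histone H3. U2OS is a human osteosarcoma line. The WT group had 3 libraries, each from a separate WT clone, and the KO group had 3, each from a separate ZBTB48 Knockout clone. Both groups had received 250 U/ml IFNγ, the cytokine interferon gamma, for 24 h, so that no untreated cells enter any comparison, and a further 2 WT input samples were not analysed here. The lists hold no reads, the depth behind a peak is unknown, and a missing peak means only that none was called at that library's depth. In these bulk samples, fewer cells with the mark and a shorter mark per cell cannot be told apart.

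Telomeres end in tandem TTAGGG repeats, which shelterin coats to keep the chromosome end from being read as a break. TERF1 and TERF2 encode TRF1 and TRF2, which bind the double-stranded repeat, TERF2IP encodes the TRF2 partner RAP1, TINF2 encodes the bridging subunit TIN2, ACD encodes TPP1, and POT1 binds the single-stranded overhang. ZBTB48, also called TZAP, ZBTB10 and HMBOX1, also called HOT1, bind telomeric DNA directly through zinc fingers or a homeobox. ZNF827 recruits the NuRD complex to telomeres in cells such as U2OS that lengthen their telomeres by recombination and without telomerase.

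The lists fell into 2 kinds that followed the genotype only in part, which bears on every length below. Both lists with long peaks were WT, while WT replicate 3 and all KO lists had short peaks. A difference between the genotype means therefore cannot be told apart from the kind of list. Over the 13399 promoters marked in all 6 libraries, the median covered length was 3330 and 3259 bp in WT replicates 1 and 2, 1979 bp in WT replicate 3, and 1670 to 1940 bp in the KO libraries. WT replicate 3 thus resembled the KO lists, and values of WT replicate 3 set against the KO lists follow the main ones for the members, with no test since 1 library stands against 3. Of the bone and mesenchymal markers, RUNX2 and COL1A1 carried a peak within 3 kb in all 6 libraries. PTPRC, a gene of blood cells, had none, while EPCAM, an epithelial gene, had a peak in all 6.

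To show what lies under the mark, the DNA just upstream of 4 of the 5′ ends is given from RefSeq (GRCh38.p14), with CpG dinucleotides in capitals and without bases that belong to an exon of a protein-coding gene. Of the 10 genes, 5 were matched in the promoter table. The ZBTB48 stretch, chr1:6579756-6579993 on the plus strand, ends at the base before the 5′ end and held 19 CpGs in 238 bases. The TERF2IP stretch, chr16:75647666-75647772 on the plus strand, is all that separates TERF2IP from KARS1, which is read in the opposite direction. The TINF2 stretch, chr14:24242664-24242873, and the POT1 stretch, chr7:124929984-124930075, are on the minus strand and lie 250 to 41 and 250 to 159 bases upstream. The first 3 stretches lay whole under a peak in all 6 libraries, and the POT1 stretch in 4, the 3 WT libraries and KO replicate 1.
ZBTB48: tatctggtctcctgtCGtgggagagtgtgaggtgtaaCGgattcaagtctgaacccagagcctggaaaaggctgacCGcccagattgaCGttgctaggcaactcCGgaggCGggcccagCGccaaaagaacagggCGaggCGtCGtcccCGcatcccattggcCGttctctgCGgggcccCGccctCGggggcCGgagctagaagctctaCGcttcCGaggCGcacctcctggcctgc
TERF2IP: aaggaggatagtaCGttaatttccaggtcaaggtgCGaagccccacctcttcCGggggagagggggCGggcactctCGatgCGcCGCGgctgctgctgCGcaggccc
TINF2: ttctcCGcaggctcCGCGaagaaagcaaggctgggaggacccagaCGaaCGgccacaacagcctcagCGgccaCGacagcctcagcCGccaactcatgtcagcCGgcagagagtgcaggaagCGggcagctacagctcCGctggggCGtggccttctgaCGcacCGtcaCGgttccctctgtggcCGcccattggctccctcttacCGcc
POT1: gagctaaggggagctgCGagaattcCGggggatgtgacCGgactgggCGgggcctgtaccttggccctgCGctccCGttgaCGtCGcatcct

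All 10 promoters carried H3K4me3 with and without ZBTB48. Each had exactly 1 peak within 3 kb in each of the 6 libraries, and in every case that peak lay over the 5′ end itself. Of all protein-coding promoters, 66.9% had a peak within 3 kb in all 6 libraries and 61.3% had the 5′ end under a peak in all 6. Of the 13572 promoters with a peak in all 3 WT libraries, 98.7% also had a peak in all 3 KO libraries, so that keeping a peak without ZBTB48 was the rule over all promoters. The lowest number of the 10 promoters with a peak in any library was 10, but fell to 4 when only peaks with a fold enrichment of at least 4 were counted, a threshold close to the median of the 4 lists with short peaks (4.19 to 4.65). This lowest number was found in WT replicate 3 as well as in KO replicate 1, with ZBTB48, TERF1, TERF2 and POT1 left in both. The share of all promoters per library at this threshold is not given here.

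**Figure D1:**
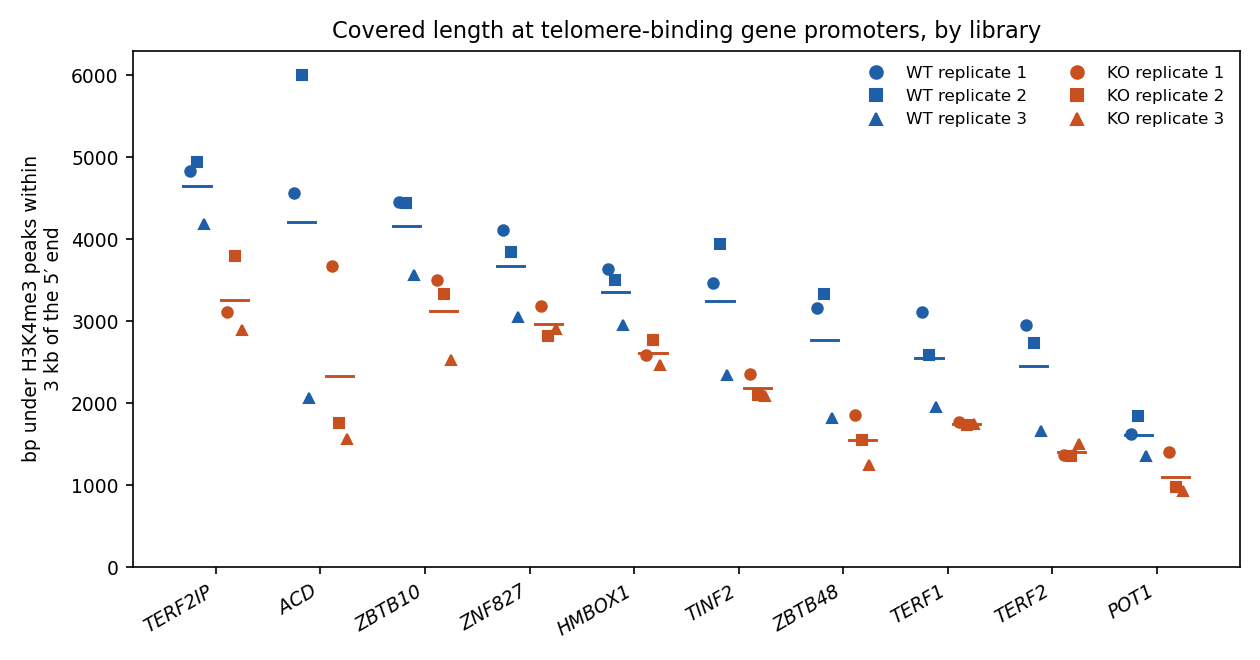
Base pairs under H3K4me3 peaks within 3 kb on either side of the 5′ end (y axis, window of 6001 bp) for the 10 genes (x axis, ordered by the WT mean), with 1 point per library and a line at each group's mean. No point is at 0, the WT mean is above the KO mean at each gene, and WT replicate 3 lies among or near the KO points at most genes.

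At ZBTB48, the gene knocked out (ENSG00000204859, chromosome 1, 6579994 to 6589280 on GRCh38, plus strand), the covered length was 3161, 3330 and 1821 bp in WT replicates 1 to 3 and 1855, 1555 and 1241 bp in KO replicates 1 to 3. WT replicates 1 and 2 were high and WT replicate 3 lay 34 bp below the highest KO library, so that the groups overlapped. WT averaged 2771 ± 826.8 bp and KO 1550 ± 307.0 bp (SD, n = 3 each; two-sided exact permutation p = 0.2, where 0.1 is the smallest p that 3 against 3 libraries allow). Adjusted by Benjamini-Hochberg over the 14422 promoters with any covered length, this p was 0.245. The KO mean was 56.0% of the WT mean, at percentile 15.3 of all promoters marked in all 6 libraries. A mark over the 5′ end is no check of the knockout, as the disrupted part of the gene is not measured here.

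The promoters whose 6 covered lengths came closest to those of ZBTB48 were TRAF3IP1, MPP2 and ASTN2, at Euclidean distances of 194.8, 214.8 and 220.0 bp over the 6 libraries. At TRAF3IP1 the lengths were 3146, 3363 and 1873 bp in WT and 1849, 1609 and 1417 bp in KO. All 3 shared the long mark of WT replicates 1 and 2, with WT replicate 3 and KO replicate 1 next to each other.

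TERF1 and TERF2, the genes of the double-strand repeat binders, both had shorter peaks in each KO library than in each WT library. At TERF1 (ENSG00000147601, chromosome 8, 5′ end 73008864, plus strand) the covered length was 3117, 2588 and 1958 bp in WT and 1770, 1730 and 1742 bp in KO. The lowest WT library stood 188 bp above the highest KO library, and the KO libraries were close together, with a mean of 1747 ± 20.5 bp (SD, n = 3) against 2554 ± 580.2 bp (SD, n = 3) for WT. At TERF2 (ENSG00000132604, chromosome 16, 5′ end 69386007, minus strand) it was 2953, 2739 and 1659 bp in WT and 1363, 1354 and 1499 bp in KO. WT averaged 2450 ± 693.6 bp and KO 1405 ± 81.2 bp (SD, n = 3 each), with a gap of 160 bp between the groups. Each of these differences had an exact permutation p of 0.1, the smallest possible, and an adjusted p of 0.196 by Benjamini-Hochberg.

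TERF2IP (ENSG00000166848, chromosome 16, 5′ end 75647773, plus strand), the gene of RAP1, had the highest mean covered length of the 10 in both genotypes, a length that stops at the edges of the 3 kb window. Whole peaks were longer elsewhere in some libraries, as at ZBTB10 with 6181 bp against 5706 bp at TERF2IP in WT replicate 1, and at ACD with 3668 bp against 3109 bp in KO replicate 1. The covered length was 4835, 4941 and 4185 bp in WT and 3109, 3792 and 2889 bp in KO, so that the groups were separated by 393 bp. The means were 4654 ± 409.3 bp (SD, n = 3) and 3263 ± 470.9 bp (SD, n = 3), with the KO mean at 70.1% of the WT mean (exact permutation p = 0.1). The peak also covers the 5′ end of KARS1, the lysyl-tRNA synthetase gene 108 bp away on the other strand, in all 6 libraries, and the parts of the mark that belong to either gene cannot be told apart.

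TINF2 and ACD encode the subunits that link the repeat binders to POT1, and at both WT replicate 3 fell within the range of the KO libraries. At TINF2 (ENSG00000092330, chromosome 14, 5′ end 24242623, minus strand) the covered length was 3469, 3945 and 2342 bp in WT and 2359, 2105 and 2088 bp in KO. WT replicate 3 lay 17 bp below KO replicate 1 (exact permutation p = 0.2), and the KO mean was 67.2% of the WT mean. At ACD (ENSG00000102977, chromosome 16, 5′ end 67660260, minus strand) it was 4559, 6001 and 2059 bp in WT and 3668, 1762 and 1559 bp in KO.

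ACD was the most variable of the 10 within a genotype, at 4206 ± 1995 bp over the WT libraries and 2330 ± 1163 bp over the KO libraries (SD, n = 3 each). In WT replicate 2 a single peak of 10369 bp filled the whole window, and it reached 7312 bp upstream of the ACD 5′ end. WT replicate 3 was 270.7 bp below the KO mean, the only member where that library fell below it. PARD6A, a cell polarity gene whose 5′ end lies 700 bp away on the other strand, was under the same peak in 5 libraries.

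POT1 (ENSG00000128513, chromosome 7, 5′ end 124929825, minus strand), which encodes the single-strand binding subunit, had the lowest mean covered length in both genotypes. The covered length was 1627, 1847 and 1360 bp in WT and 1406, 974 and 933 bp in KO, with WT replicate 3 at 46 bp below KO replicate 1 (exact permutation p = 0.2). The upstream edge of the peak lay 535, 571 and 406 bp from the 5′ end in WT and 487, 181 and 108 bp in KO. The peak of KO replicate 2 therefore ended inside the POT1 stretch printed above, and that of KO replicate 3 ended short of it.

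Among the other telomere-binding proteins, ZBTB10 and HMBOX1 had higher values in each WT library than in each KO library and ZNF827 did not. At ZBTB10 (ENSG00000205189, chromosome 8, 5′ end 80486226, plus strand) the covered length was 4458, 4448 and 3564 bp in WT and 3506, 3336 and 2533 bp in KO, a separation of 58 bp. At HMBOX1 (ENSG00000147421, chromosome 8, 5′ end 28890395, plus strand) it was 3632, 3503 and 2951 bp in WT and 2589, 2765 and 2468 bp in KO, a separation of 186 bp. Both had an exact permutation p of 0.1 and an adjusted p of 0.196 by Benjamini-Hochberg. The HMBOX1 peak also covered INTS9, an Integrator subunit gene that starts 426 bp away on the other strand, in all 6 libraries. At ZNF827 (ENSG00000151612, chromosome 4, 5′ end 145938823, minus strand) the covered length was 4116, 3842 and 3054 bp in WT and 3181, 2824 and 2909 bp in KO, and KO replicate 1 exceeded WT replicate 3 by 127 bp (exact permutation p = 0.2).

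In each genotype the order of the mean covered lengths ran from TERF2IP to POT1. Genes next to each other in the WT order, TERF2IP, ACD, ZBTB10, ZNF827, HMBOX1, TINF2, ZBTB48, TERF1, TERF2 and POT1, had overlapping values over the 3 WT libraries. In the KO order, TERF2IP, ZBTB10, ZNF827, HMBOX1, ACD, TINF2, TERF1, ZBTB48, TERF2 and POT1, the values of ZNF827 and HMBOX1 did not overlap, and neither did those of TINF2 and TERF1.

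Together, 5 of the 10 members (TERF1, TERF2, TERF2IP, ZBTB10 and HMBOX1) had every WT library above every KO library, against 50.8% of the 14422 promoters tested. None had the reverse, which was found at 0.111%. The same 5 members had WT replicate 3 above every KO library, against 54.4% of 14281 promoters with any covered length in those 4 libraries. These shares lie at the background, and separation at a member is not a result about telomere-binding genes. When lengths were divided by each library's median over the promoters marked in all 6 libraries, 0 members had every WT library above every KO library and 1, ZNF827, had the reverse, and the shares over all promoters became 5.75% and 12.1%. Without WT replicate 3, or without KO replicate 1, all 10 members were separated, against 90.9% and 80.2% of promoters.

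The KO mean was 55.4 to 80.9% of the WT mean, with a median over the members of 68.5%, against 65.1% over all promoters marked in all 6 libraries, whose middle 50% lay between 59.2 and 70.7%. The median difference was 1038 bp over the members and 998.0 bp over those promoters. ACD, ZBTB48 and TERF2, at 55.4, 56.0 and 57.4%, were in the lower part of that distribution, and ZBTB10, HMBOX1 and ZNF827, at 75.2, 77.6 and 80.9%, in the upper part, at percentiles 87.0, 90.6 and 94.2. At ZBTB10 and ZNF827 the 3 kb window cut the peak short in WT replicates 1 and 2 alone, which raises the KO share. Whole peaks at ZBTB10 were 6181, 5805 and 3564 bp in WT and 3506, 3336 and 2533 bp in KO. Those at ZNF827 were 5282, 4324 and 3054 bp in WT and 3181, 2824 and 2909 bp in KO. The HMBOX1 peak lay inside the window in every library. For WT replicate 3 against the KO mean, the median over the members was a difference of 254.7 bp and a KO share of 88.0%, against 163.7 bp and 91.3% over the promoters marked in those 4 libraries.

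**Figure D2:**
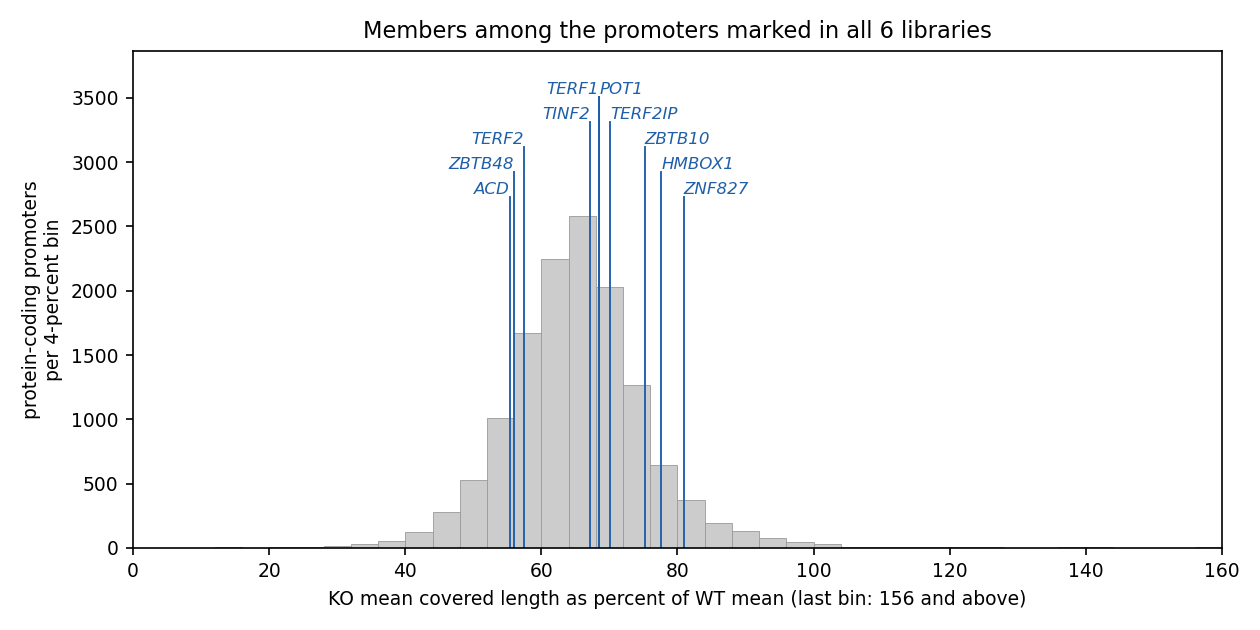
The KO mean covered length as a percent of the WT mean (x axis) for the 13399 promoters marked in all 6 libraries (grey bars, number of promoters per bin on the y axis), with a blue line at each of the 10 genes. The members span 55.4 to 80.9%, from percentile 14.0 (ACD) to percentile 94.2 (ZNF827) of these promoters.

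The covered length differed on both sides of the 5′ end. Over the members, the peak reached a median of 462.8 bp further upstream and 733.0 bp further downstream in WT than in KO, and the downstream side differed more at 7 of 10, against 399.2 bp, 587.3 bp and 72.2% over the 12288 promoters with the 5′ end under a peak in all 6 libraries. At ZBTB48 the upstream extent was 887.7 ± 281.9 bp for WT and 455.3 ± 104.9 bp for KO, and the downstream extent was 1882 ± 564.5 bp and 1094 ± 230.1 bp (SD, n = 3 each). TERF2, ACD and HMBOX1 differed more on the upstream side. ZNF827 had the most lopsided mark, with 99 to 1115 bp upstream and 2625 to 4166 bp downstream of its 5′ end. With WT replicate 3 against the KO means, the median differences of the members were 137.3 bp upstream and 91.2 bp downstream, against 62.2 and 86 bp over all these promoters.

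**Figure D3:**
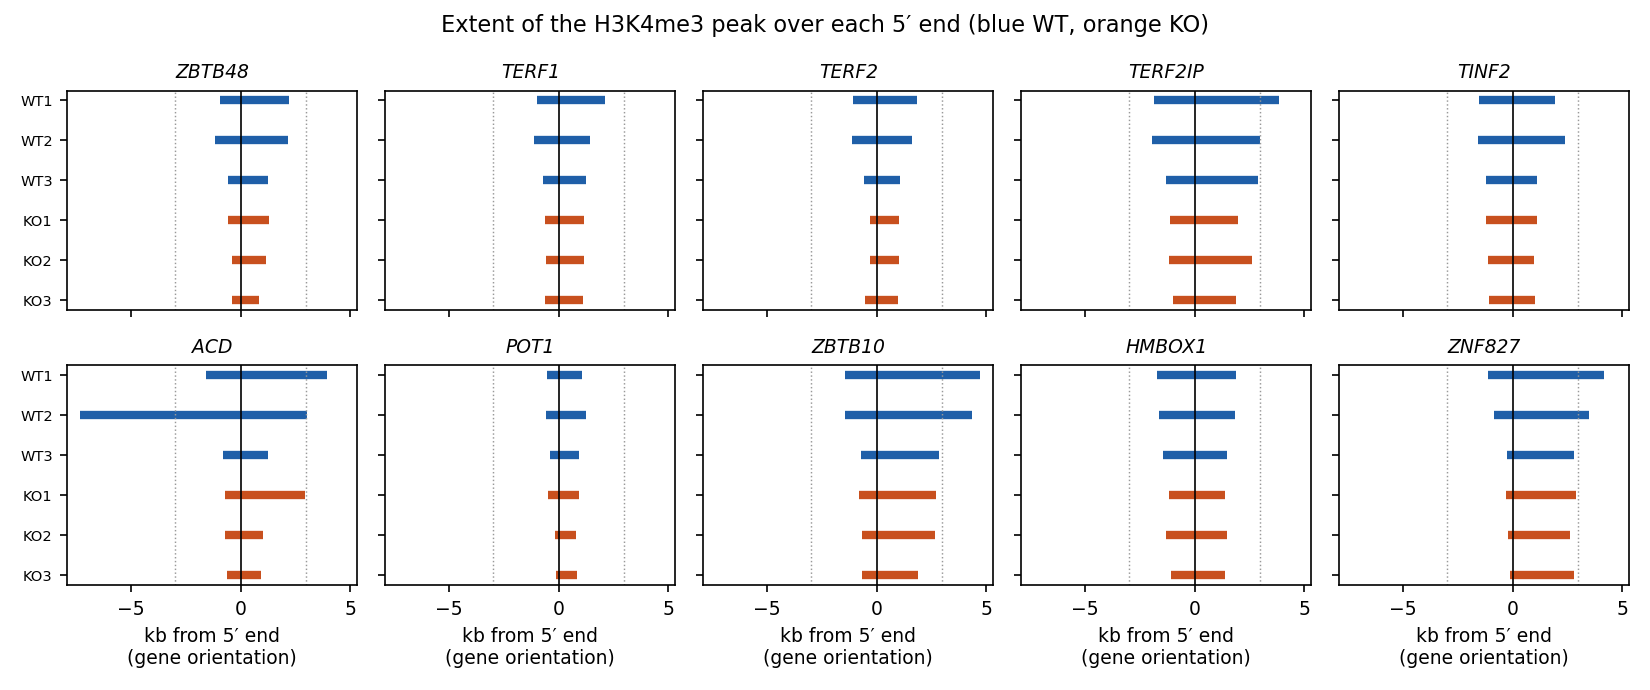
Extent of the peak over the 5′ end (x axis, kb from the 5′ end, downstream to the right) in each of the 6 libraries (y axis) for the 10 genes, WT in blue and KO in orange, with dotted lines at 3 kb. Each gene has a bar across its 5′ end in each library, and the bar of ACD in WT replicate 2 reaches 7312 bp upstream.

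Since peak length depended on the kind of list, each promoter was also ranked by covered length within its own list, as a percentile of the promoters covered there. On this scale 0 members had every WT library above every KO library, against 7.13% of promoters, and 1, ZNF827, had every KO library above every WT library, against 10.7%. The percentile of ZNF827 was 76.2, 71.4 and 91.9 in WT and 93.5, 92.7 and 95.4 in KO, with WT replicate 3 close to the KO libraries (exact permutation p = 0.1, adjusted p = 0.56 by Benjamini-Hochberg). The 3 kb window cut the ZNF827 peak short in WT replicates 1 and 2 alone. ZBTB48 was at 45.8, 54.2 and 40.6 in WT and 46.1, 35.7 and 21.3 in KO, with overlapping groups (exact permutation p = 0.3). TERF2IP was at 90.6 or above and POT1 at 16.0 or below in all 6 lists.

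The height of the peaks behaved differently from their length. The fold enrichment, the ratio of ChIP signal to local background that the peak caller averages over a peak, was ranked within each list over all its peaks. ZBTB10 was at percentile 99.3 and 97.3 in WT replicates 1 and 2, but at 7.7 in WT replicate 3 and 12.3, 10.1 and 24.0 in KO. TERF2IP, ZNF827 and HMBOX1 showed the same break, with 84.1 or above in WT replicates 1 and 2 and 38.4 or below in the other 4 lists. POT1 went the other way, from 51.7 and 51.6 in WT replicates 1 and 2 to 90.6 in WT replicate 3 and 82.3, 95.1 and 95.6 in KO. At these 5 genes, named for the size of the break, WT replicate 3 lay nearer to the KO libraries than to the other two WT libraries. TERF2 had all KO libraries, at 82.9 to 91.5, above all WT libraries, at 73.9 to 79.0. It was 1 of 10 members to do so, against 7.6% of the 12288 promoters with the 5′ end under a peak in all 6 libraries, and 0 members had the reverse, against 4.79%.

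A like break ran through the lists as a whole. Over the 12288 promoters with the 5′ end under a peak in all 6 libraries, Spearman's rho between peak width and fold enrichment was 0.329 and 0.314 in WT replicates 1 and 2, and −0.856 in WT replicate 3 and −0.864, −0.846 and −0.831 in the KO libraries. This is a description across promoters of the same lists, which are not independent. The part of the kind of list in the fold enrichment ranks of the members was not tested.

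**Figure D4:**
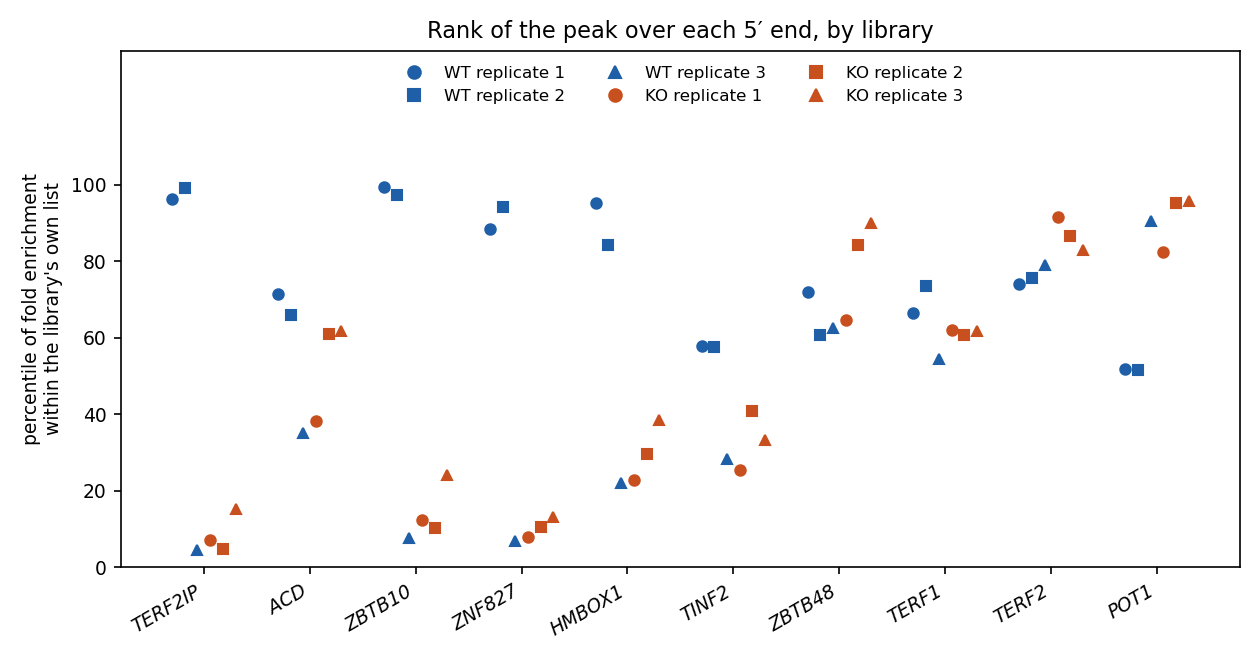
Percentile of the fold enrichment of the peak over each 5′ end among all peaks of the same list (y axis) for the 10 genes (x axis, in the order of the WT mean covered length), with 1 point per library. At TERF2IP, ZBTB10, ZNF827 and HMBOX1, WT replicates 1 and 2 are at the top and WT replicate 3 is at the bottom with the KO libraries.

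Genes that work with shelterin were set beside the members. All 14 shelterin partners, which include the CST complex of CTC1, STN1 and TEN1, the tankyrases, the MRN complex of MRE11, RAD50 and NBN, and the helicases RTEL1, WRN and BLM, had a peak in all 6 libraries. Of all promoters, 66.9% did. Every WT library lay above every KO library at 7 of the 14, again against 50.8% of promoters. The median KO share of the WT length was 64.0%, against 65.1% over all promoters marked in all 6 libraries. The largest differences were at TNKS2, a tankyrase that modifies TRF1, with 3466 ± 1337 bp in WT and 1861 ± 213.5 bp in KO (SD, n = 3 each), where WT replicate 3 lay 45 bp below the highest KO library, and at SLX4, a nuclease scaffold, with 3685 ± 1123 bp and 2196 ± 154.5 bp. The smallest was at RAD50, with 2811 ± 634.3 bp and 2023 ± 370.9 bp, where the groups overlapped.

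Of 5 other proteins that bind telomeric repeats (NR2C1, NR2C2, NR2F2, VEZF1 and ZNF524), all had a peak in all 6 libraries, against 66.9% of promoters. At 3 of them every WT library lay above every KO library, against 50.8% of promoters. Among the 5, the largest differences were at ZNF524, with 3607 ± 1338 bp in WT and 2327 ± 619.8 bp in KO (SD, n = 3 each), and at VEZF1, with 3389 ± 911.8 bp and 2173 ± 71.6 bp. At ZNF524 the groups overlapped, and WT replicate 3 stood at −932 bp relative to the highest KO library and at −216.7 bp relative to the KO mean. The smallest difference was at NR2C1, with 1876 ± 272.7 bp and 1321 ± 135.5 bp. TERB1, TERB2 and MAJIN, which tether telomeres to the nuclear envelope in meiosis, had no peak within 3 kb in any library.

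The 5 targets of ZBTB48 (CIITA, MTFP1, VWA5A, PXMP2 and SNX15) were set beside the members in the same lists. Of these, 3 had a peak within 3 kb in all 6 libraries, against all 10 members and 66.9% of all promoters. The KO mean was 13.2% of the WT mean at CIITA, 18.4% at VWA5A and 48.5% at PXMP2. At SNX15 and MTFP1 it was 57.0 and 63.6%, inside the members' range of 55.4 to 80.9%. WT replicate 3 exceeded the highest KO library by 408 to 1562 bp at the 5 targets and by at most 393 bp, at TERF2IP, at the members. Such a gap was not particular to the targets. Among the shelterin partners it was 815 bp at TEN1 and 587 bp at TNKS, above SNX15 (408 bp) and PXMP2 (444 bp). Every other partner was at 268 bp or below, and no share over all promoters is given for this gap. Each WT library lay above each KO library at all 5 targets, against 50.8% of promoters. The study looked at the mark of some of its targets in these same libraries, so that they are not independent evidence, and the difference between the lists was not tested.

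Most of the 10 promoters were rich in CpG. In the 300 bases from 250 upstream to 50 downstream of the 5′ end, the ratio of observed to expected CpGs had a median of 0.846 over the members and 0.775 over all promoters, and was at least 0.6 at 9 of 10 members and at 67.4% of promoters. HMBOX1, at 0.513, was the exception. The telomeric unit TTAGGG, on either strand, was found in these 300 bases at ZNF827 alone, against 8.54% of all promoters. In the 6001 bases around the 5′ end it was found at 8 of 10 members, all but ZBTB48 and HMBOX1, against 88.7% of promoters. No member had 2 units in tandem there, a feature of 0.22% of promoters.

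Outside the 3 kb window the members' genes held few peaks. TERF2 had a region of 764 bp (chromosome 16, 69397917 to 69398680), 11910 bp upstream of the MANE Select 5′ end and within the gene's longest annotated extent, that was called in WT replicates 2 and 3 and KO replicate 1. ZNF827 had a region of 1218 bp, 133274 bp into the gene (chromosome 4, 145804332 to 145805549), called in WT replicates 2 and 3 and in no KO library, with a −log10 q of 3.05 at most. TERF2IP had 1 region, called in KO replicate 1 alone, and the other 7 genes had none. None of these 3 regions held an annotated 5′ end of the gene.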

How the data were processed

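H3K4me3 ChIP-seq was available for 3 U2OS WT and 3 ZBTB48 KO clones under IFNγ, with groups and replicate numbers taken from the sample titles. Per the study's methods, and for versions the submitters' processing notes, reads were trimmed with Trimmomatic, aligned to GRCh38 with Bowtie2 2.3.5.1 and filtered for unmapped, multimapping and duplicate reads, and broad peaks were called per library with MACS2 2.1.1.2. Use of an input by the caller is not given in the sources used here. The deposited lists give, per peak, a fold enrichment ratio, −log10 p and −log10 q values, and a score, which was not used. Depth is unknown, so no counting interval was computed.

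Peaks outside chromosomes 1 to 22, X and Y were dropped, and genes came from GENCODE release 44, on the same build. A promoter was the MANE Select 5′ end, or the canonical one for the 972 genes without it. Covered length was the bp under peaks within 3 kb. For each promoter with any covered length, WT and KO were compared by a two-sided exact permutation test over the 20 assignments of the libraries, adjusted by Benjamini-Hochberg over all 14422. These p-values measure only the spread between libraries, in which the clone and the kind of list cannot be told apart. A promoter was called where every WT library exceeded every KO library, or the reverse. No test was run over the list of members. The test was checked on simulated lists that all derived from the same list. They lacked the difference in peak width between the real lists, so this check cannot show how the test behaves under it. Tools were Python 3.11.15, numpy 2.4.6, scipy 1.17.1, pysam 0.24.0 and matplotlib 3.10.9.

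The members and the lists set beside them were chosen with earlier results of these data known. The genes named were the 10 members, protein-coding neighbours within 3 kb, the 3 promoters most like ZBTB48, the targets, and, in each other list, genes without a peak and those with the 2 largest differences and the smallest. Alternatives were stricter peak thresholds, an equal number of peaks per list, a 1 kb window, the most upstream 5′ end, an overlap of at least 500 bp, scaling by library median, WT replicate 3 alone, each library left out in turn, and the replicate number as a block.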

Additional observations from a re-analysis of the deposited data

How the results depend on the processing

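The covered length of the 10 members kept the direction of its main difference in 140 of 150 gene and setting pairs. It was 0 at TERF2 from the most upstream 5′ end, where no library had a peak. It was also 0 at HMBOX1 in the 1 kb window, which the peak filled in every library. In that window it was 0.667 bp at TINF2 and 3.33 bp at TERF2IP, where the peak nearly filled it. Scaling by library median turned the difference at 7 genes, to −165.7 bp at TERF1, −304.8 bp at TERF2IP, −170.9 bp at TINF2, −70.9 bp at POT1, −546.5 bp at ZBTB10, −556.9 bp at HMBOX1 and −790.2 bp at ZNF827, and WT replicate 3 against KO turned it at ACD, to −270.7 bp. The median difference over the members was −168.3 bp with scaling, 1663 bp with a fold enrichment of at least 4, 288 bp in the 1 kb window and 254.7 bp for WT replicate 3 against KO, and the median KO share of the WT length was then 107.1, 33.0, 85.0 and 88.0%. Over all promoters these shares had medians of 102.7, 59.0, 84.1 and 91.0%. At TERF2IP, ZBTB10 and ZNF827 the fold enrichment was below 4 in WT replicate 3 as well as in every KO library. The number of members with every WT library above every KO library was 2 with a fold enrichment of at least 4, against 31.7% of promoters. It was 3 from the most upstream 5′ end (50.3% of promoters), 0 with scaling (5.75%), and 5 to 10 with a library left out (51.5 to 90.9%). It was 10 without WT replicate 3 and without KO replicate 1, against 90.9 and 80.2% of promoters. The lowest number of members with a peak was 4 with a fold enrichment of at least 4, in WT replicate 3 and in KO replicate 1. Apart from the filled 1 kb window, the cause of these changes was not tested. Scaling moved the median difference over all promoters to −63.0 bp.

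The difference in within-list percentile turned more often, in 17 of 150 pairs. With a fold enrichment of at least 4 it became 61.3 at TERF2IP, 13.2 at TINF2, −0.84 at POT1, 56.6 at ZBTB10, 6.98 at HMBOX1 and 48.8 at ZNF827. For WT replicate 3 against KO it became 2.21 at TERF1, 3.07 at TERF2IP, −6.7 at ACD, 1.93 at ZBTB10 and 2.28 at HMBOX1, and in the 1 kb window 16.2 at ZNF827. With a library left out it ranged from −3.56 to 0.476 at TERF2IP and from −1.08 to 3.64 at POT1, either side of 0.

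With the replicate number as a replicate block, each WT library exceeded the KO library of the same number at 10 of 10 members and 85.6% of promoters, and the smallest p the block allows is 0.25. The numbers do not pair the libraries. Deviations from the group means over the promoters marked in all 6 libraries correlated at −0.111, −0.0213 and −0.00897 between same-numbered libraries, and no WT library correlated best with its own number. With 3 libraries a group, the smallest p of the exact permutation test is 0.1, so that no single promoter can pass 0.05.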
